A study of Mus musculus with 5 samples.

Results

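The olfactory bulb interneuron transcription factors described here are 8 genes, *Sp8*, *Pax6*, *Tshz1*, *Etv1*, *Zic1*, *Zic2*, *Zic4* and *Zic5*, of 20340 protein-coding genes in the deposited expression table. They were chosen by name, and all 8 were found. The RefSeq transcripts of each symbol were summed, which joined a pair of transcripts for *Etv1* and left 1 transcript for each of the others.

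Neurons of the olfactory bulb are replaced throughout life in mice. Stem cells in the wall of the lateral ventricle give rise to neuroblasts that migrate along the rostral migratory stream into the bulb, where they become granule cells and periglomerular cells, most of them GABAergic. In mice, *Sp8*, *Pax6*, *Tshz1*, *Etv1* and the *Zic* genes are each expressed in, and several are needed for, particular subtypes of these interneurons, such as the periglomerular cells that make dopamine or the calcium-binding protein calretinin. None of the factors is restricted to them: *Pax6* is also present in astrocytes, *Etv1* in cortical layer 5 neurons, and *Zic* genes in the meninges.

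Polyadenylated RNA was sequenced from 4 microdissected regions of adult male wild-type C57BL/6 mice. The subventricular zone (SVZ), where the neuroblasts are born, had 2 biological replicates. The olfactory bulb (OB), the dentate gyrus (DG, the hippocampal niche, which makes glutamatergic granule neurons) and the striatum (STR, the non-neurogenic tissue beside the SVZ) had 1 library each. Per the labels no group differed in genotype or treatment, and the number of animals pooled per library is not stated in those sources. Levels are FPKM, the authors' fragment counts scaled to transcript length and to the size of the library, which allows genes of different lengths to be compared.

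FPKM values hold no read counts, so the depth of the libraries is unknown and no counting error can be given. The DG library listed 16725 of 37142 transcripts at 0, against 9564 to 10807 in the other 4 libraries. SVZ sample 2 correlated more closely with STR (Pearson r = 0.968 across 14024 coding genes) than with SVZ sample 1 (r = 0.941). RefSeq transcripts under 200 bases reached 1 FPKM 153 and 161 times in SVZ sample 2 and STR, and 14 to 24 times in the other 3 libraries. The libraries are therefore treated as 2 sets, SVZ sample 1 with OB and DG, and SVZ sample 2 with STR, and the differences between regions were also computed within the sets. The labelled regions carried their defining transcripts: 10 of 10 dentate granule neuron genes were highest in DG, 9 of 9 ependymal genes in SVZ sample 1, and 6 of 8 mitral and tufted cell genes in OB. Striatal projection neuron genes were abundant in the SVZ samples (summed 3363 and 2176 FPKM) and in STR (2716 FPKM), and 0 of 10 differed by 2 log2 units between SVZ and STR (median -0.11), so the SVZ dissections held transcripts of striatal neurons.

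All 8 factors had their highest FPKM in OB, where 44.49% of the 13057 coding genes at 1 FPKM or more also had theirs. For *Etv1* this order did not hold after median-ratio scaling of the libraries (OB minus STR -0.30 on log2(FPKM + 1)). A level of 1 FPKM was reached by 8 of the 8 in OB, 6 in each SVZ sample, 6 in DG and 5 in STR, and by 60.2% to 64.5% of all coding genes in these libraries. The levels spanned a wide range in the bulb, from *Tshz1* at 125 FPKM to *Zic5* at 1.83 FPKM. In bulk tissue, fewer cells of a type and less RNA per cell cannot be told apart.

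**Figure D1:**
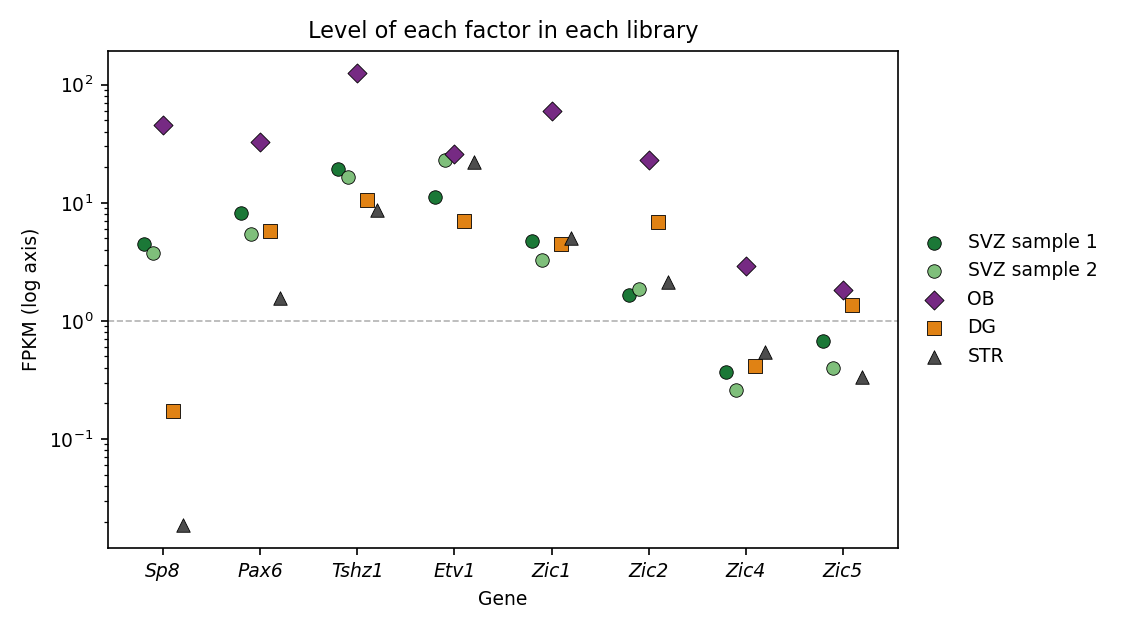
FPKM (log axis) of each of the 8 factors in the 5 libraries, 1 point per library, with a dashed line at 1 FPKM. The OB point is the highest for every gene, with *Etv1* and *Zic5* the genes in which another library lies close to it, and *Sp8* falls to 0.171 FPKM in DG and 0.0186 FPKM in STR.

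*Sp8* encodes a zinc finger factor of the Sp family that in mice marks neuroblasts and calretinin-making bulb interneurons. It lies on chromosome 12, 120084802 to 120091051 (mm9). Its level was 45.4 FPKM in OB, 4.47 and 3.77 FPKM in the SVZ samples (4.12 ± 0.494, SD, n = 2), 0.171 FPKM in DG and 0.0186 FPKM in STR. OB was the highest library, 10.2 and 12.0 times the SVZ samples, which lay close together and above DG and STR, where the gene was near the bottom of the scale. Of the 8, *Sp8* gave the largest differences from STR and DG, 5.51 ± 0.49 and 5.31 ± 0.49 on the log2(FPKM + 1) scale (limma difference ± SE).

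RefSeq (GRCm38.p6) lists 3 starts for *Sp8*. The 250 bases before the second are shown, because *Sp8* had the largest differences from STR and DG and this is the window of its 3 that holds a GC box. Capitals mark that motif, GGGCGG, which Sp-type zinc fingers bind.
Sp8 start 2 (chr12:118846983-118847232, plus strand): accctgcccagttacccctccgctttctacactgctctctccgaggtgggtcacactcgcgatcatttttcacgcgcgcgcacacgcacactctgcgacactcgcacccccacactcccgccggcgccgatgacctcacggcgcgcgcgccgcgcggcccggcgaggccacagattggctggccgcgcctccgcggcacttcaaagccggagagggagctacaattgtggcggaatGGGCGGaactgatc
The window was 67.2% G and C, against a median of 52.4% over 32841 such windows, of which 32.75% hold GGGCGG on either strand. The window before the third start held TAATTA, a core bound by homeodomain proteins such as the Dlx factors, as do 4.842% of all windows. A match describes the letters and is not evidence of binding.

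*Pax6*, on chromosome 2 from 105516602 to 105537226, encodes a factor with a paired domain and a homeodomain that in mice is needed for dopaminergic periglomerular cells. It stood at 32.8 FPKM in OB, 8.27 and 5.46 FPKM in the SVZ samples (6.86 ± 1.99, SD, n = 2), 5.79 FPKM in DG and 1.55 FPKM in STR. DG lay between the SVZ samples, so these neighbours in the order did not differ beyond the SVZ spread, while STR was below all of them. OB exceeded the SVZ samples by 3.96 and 6.01 times. The catalogue of long noncoding RNAs (lncRNAs) has a pair of transcripts named Pax6os1 on the opposite strand, whose nearer end is 6115 bases before *Pax6*. Their summed level was 0.967 FPKM in OB and 0.0917 and 0.0572 FPKM in the SVZ samples, and both were listed at 0 in DG and STR. The neighbour was thus also highest in OB, at a level below 1 FPKM.

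*Tshz1*, on chromosome 18 from 84181019 to 84255954, is a teashirt-family zinc finger gene that in mice is needed for interneurons to move out radially within the bulb. It was the most abundant factor in OB, at 125 FPKM, against 19.4 and 16.5 FPKM in the SVZ samples (18.0 ± 2.07, SD, n = 2), 10.5 FPKM in DG and 8.75 FPKM in STR. OB was 6.42 and 7.56 times the SVZ samples. The SVZ samples in turn lay above DG and STR, but by no more than 2.22 times, and DG and STR were close to each other.

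*Etv1*, also called ER81, is an ETS-domain gene on chromosome 12 from 39506845 to 39594802 that in mice is linked to the dopaminergic interneurons. It was the exception among the 8. Its summed level was 25.9 FPKM in OB, 11.3 and 23.0 FPKM in the SVZ samples (17.1 ± 8.30, SD, n = 2), 22.1 FPKM in STR and 6.96 FPKM in DG. OB, SVZ sample 2 and STR were within 1.17 times of each other, and the SVZ samples differed by more than OB did from SVZ sample 2. Within the library sets, OB was 2.30 times SVZ sample 1, and SVZ sample 2 was 1.04 times STR.

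The 2 *Etv1* transcripts divided along those sets. NM_001163154, of 3791 bases, stood at 9.51 FPKM for SVZ sample 1, 23.6 for OB and 4.36 for DG, then 6.92 for SVZ sample 2 and 9.14 for STR. NM_007960, of 4131 bases, was at 1.75, 2.39 and 2.60 FPKM in the first 3 of these libraries and at 16.1 and 13.0 FPKM in the last 2. The longer transcript therefore made up 15.6%, 9.22% and 37.3% of the gene in SVZ sample 1, OB and DG, and 69.9% and 58.7% in SVZ sample 2 and STR. By the shorter transcript alone OB exceeded all 4 other libraries, and by the longer it did not. The part of the library set in this division was not tested.

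**Figure D2:**
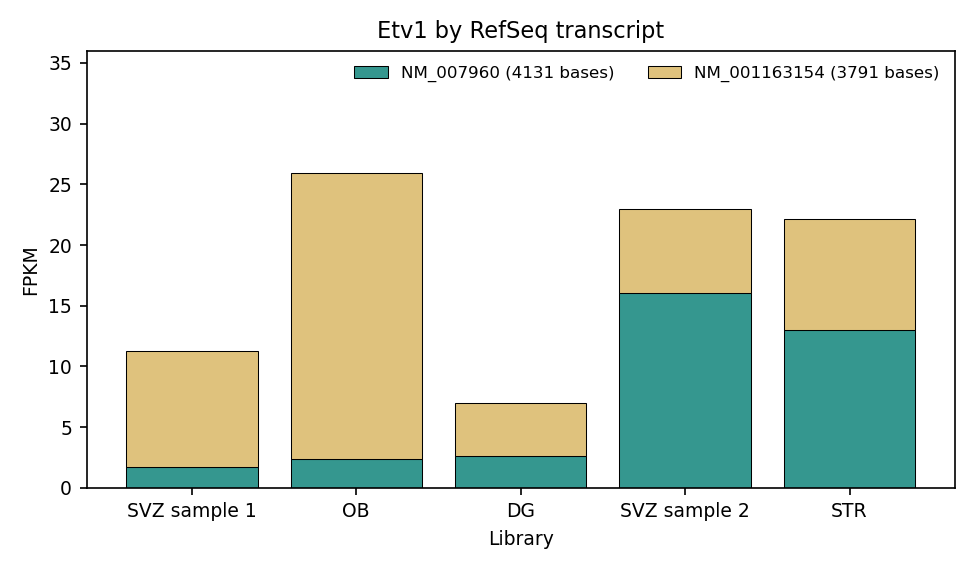
*Etv1* FPKM in each library (bars, stacked by RefSeq transcript, single libraries with no error bar), with the libraries of the same set side by side. The longer transcript has 16.1 FPKM in SVZ sample 2, 13.0 in STR and 1.75 to 2.60 elsewhere, and OB has the most of the shorter one.

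The *Zic* genes encode C2H2 zinc finger factors and lie as head-to-head pairs. *Zic1* (chromosome 9, 91255183 to 91260637) and *Zic4* (91263810 to 91284186) point away from each other with 3173 bases between their starts on mm9. *Zic5* (chromosome 14, 122858382 to 122864880) and *Zic2* (122874606 to 122879550) do so with 9726 bases between. *Zic1*, which in mice is expressed in calretinin-making interneurons, was at 59.3 FPKM in OB, 4.79 and 3.25 FPKM in the SVZ samples (4.02 ± 1.09, SD, n = 2), 4.48 FPKM in DG and 5.05 FPKM in STR. OB was 11.8 to 18.2 times each other library, and the other 4 stayed within a narrow band. Its partner *Zic4* was likewise highest in OB, with 2.90 FPKM there, 0.369 and 0.263 FPKM in the SVZ samples, 0.418 FPKM in DG and 0.549 FPKM in STR. *Zic1* exceeded *Zic4* by 20.5 times in OB and by 9.18 to 13.0 times elsewhere.

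*Zic2* was at 22.8 FPKM in OB, 1.67 and 1.86 FPKM in the SVZ samples (1.76 ± 0.136, SD, n = 2), 6.88 FPKM in DG and 2.13 FPKM in STR. It was the factor with the clearest second place for the dentate gyrus, at 4.13 times SVZ sample 1 of the same set. *Zic5* was at 1.83 FPKM in OB and 1.36 FPKM in DG, while SVZ had 0.676 and 0.399 FPKM and STR 0.336 FPKM. For this pair, too, DG came after OB, and *Zic5* in DG was not far below OB (1.34 times). *Zic2* exceeded *Zic5* by 12.4 times in OB and by 2.47 to 6.33 times elsewhere.

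Sequence before the RefSeq starts of *Zic1* and *Zic5* (GRCm38.p6) is shown because these are the minus-strand genes of the 2 pairs, one with a high and one with a low level in OB. Each window of 250 bases is cut where a GENCODE exon begins, and capitals mark GGGCGG.
Zic1 (chr9:91365811-91366018, minus strand): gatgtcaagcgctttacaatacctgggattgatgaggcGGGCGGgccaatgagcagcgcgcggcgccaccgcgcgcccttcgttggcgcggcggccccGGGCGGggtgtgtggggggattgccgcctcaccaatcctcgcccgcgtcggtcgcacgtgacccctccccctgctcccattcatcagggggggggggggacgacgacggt
Zic5 (chr14:122465678-122465908, minus strand): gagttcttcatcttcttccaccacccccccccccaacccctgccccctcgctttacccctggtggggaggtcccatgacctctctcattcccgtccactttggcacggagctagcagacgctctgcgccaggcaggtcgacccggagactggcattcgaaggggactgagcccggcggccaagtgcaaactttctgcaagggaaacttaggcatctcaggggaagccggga
The *Zic1* sequence holds 2 copies of GGGCGG and the *Zic5* sequence none. The full window of *Zic1* was 66.0% G and C with 27 CpG dinucleotides, that of its neighbour *Zic4* 44.4% with 4, and that of *Zic5* 62.4% with 11. Of 10 windows of the 6 factors in the table, 2 held GGGCGG, 1 held TAATTA and 0 held CAGCTG, an E-box that 13.0% of all windows hold. The 3 motifs share no bases in these windows, and both strands were searched.

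The lncRNA catalogue has 2 unnamed transcripts beside *Zic2*, both on the minus strand opposite to it. A transcript of 2 exons at chromosome 14, 122880194 to 122882171, 644 bases beyond the end of *Zic2*, had 0.712 FPKM in OB, and the other 4 libraries listed it at 0. A transcript of 3 exons between *Zic5* and *Zic2*, at 122869506 to 122872801, had 0.244 FPKM in OB, 0.0552 in SVZ sample 1 and 0.0830 in STR, with 0 listed for SVZ sample 2 and DG. As with Pax6os1, OB had the highest level. No catalogue transcript overlapped any of the 8 genes, and the other factors had none within 10 kb.

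All 8 factors were higher in OB, where the interneurons settle, than in the SVZ, *Etv1* by little more than its standard error. Both are dissections of mixed tissue, so the course of maturing interneurons itself was not measured. Differences were taken on log2(FPKM + 1), which understates the change of low genes, and counted by size, with 2 log2 units (4-fold on this scale) as the threshold, among genes that reached 1 FPKM in either of the regions compared. *Zic1* (3.60 ± 0.51), *Sp8* (3.18 ± 0.42), *Zic2* (3.11 ± 0.45), *Tshz1* (2.73 ± 0.48) and *Pax6* (2.13 ± 0.52) passed it, so 5 of 8 were past a threshold that 3.6% of 13818 coding genes passed upward and 2.08% downward. *Zic4* (1.57 ± 0.26), *Zic5* (0.89 ± 0.29) and *Etv1* (0.65 ± 0.59) did not. The median over the 8 was 2.43, beside 0.24 over all coding genes. Relative to that shift of the whole table the 5 factors were 1.88 to 3.36 higher in OB. Median-ratio scaling moved the coding median to -0.01 and the shares past the threshold to 2.5% upward and 2.53% downward. It also left 4 of the 8 past the threshold, with *Pax6* at 1.86.

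With either SVZ sample alone the 5 stayed past the threshold, except *Pax6*, which was at 1.87 against SVZ sample 1 of the same set and 2.39 against SVZ sample 2. Against SVZ sample 1 the others were *Zic1* at 3.38, *Zic2* at 3.16, *Sp8* at 3.08, *Tshz1* at 2.62, *Zic4* at 1.51 and *Zic5* at 0.76. *Etv1* ranged from 0.17 against SVZ sample 2 to 1.14 against SVZ sample 1. limma fitted to the coding genes gave an adjusted p (Benjamini-Hochberg) under 0.05 for *Sp8* (0.0193), *Zic1* (0.0218), *Zic2* (0.0228), *Zic4* (0.0335) and *Tshz1* (0.0374), and 0.0861 for *Pax6*, 0.18 for *Zic5* and 0.653 for *Etv1*, while 4.55% of all coding genes were called. The SVZ samples are of different library sets, so their spread, and with it each standard error and adjusted p, holds any difference between the sets. The limma calls rest on 1 residual degree of freedom, that of the SVZ pair, and OB is assumed to vary as the SVZ does. They were lost for all 5 when noncoding genes and lncRNA loci joined the fit (adjusted p from 0.167 to 0.172), when no low genes were left out (0.103 to 0.161) and without limma's mean-variance trend, where the lowest adjusted p of a factor was 0.0636. After median-ratio scaling limma called 6, with *Pax6* added (adjusted p = 0.00613).

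**Figure D3:**
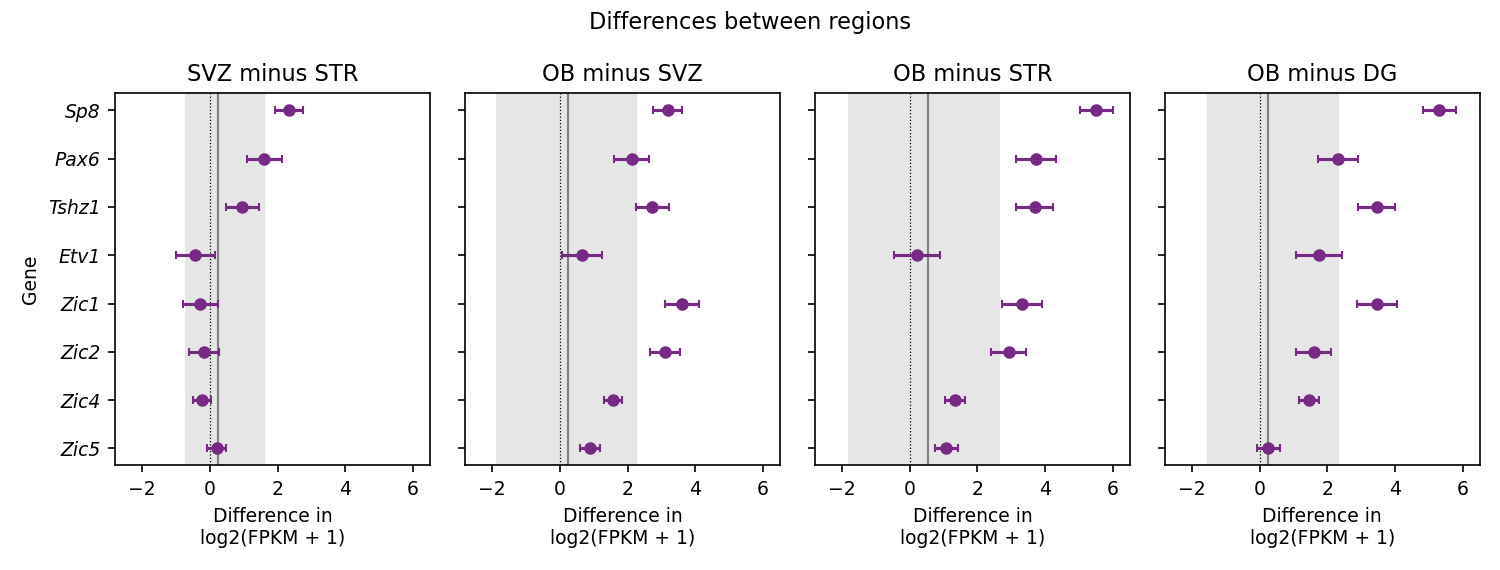
Differences in log2(FPKM + 1) of the 8 factors for 4 pairs of regions (points, with limma standard errors). The grey band spans the central 95% of coding genes and the solid line marks their median. In the 3 panels with OB, *Sp8*, *Tshz1* and *Zic1* lie to the right of the band, and in SVZ minus STR *Sp8* lies beyond it and *Pax6* at its edge.

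Against STR, the bulb was higher by at least 2 log2 units for 5 of 8 factors, where 6.5% of 13365 coding genes were (2.04% lower; 3.49% and 3.28% after median-ratio scaling). The median over the 8 was 3.12, beside 0.53 over all coding genes. The 5 were *Sp8* (5.51 ± 0.49), *Pax6* (3.73 ± 0.60), *Tshz1* (3.69 ± 0.55), *Zic1* (3.32 ± 0.59) and *Zic2* (2.93 ± 0.52). Bridged through the SVZ samples, so that each step stayed within a library set, these became 5.31, 3.20, 3.47, 2.87 and 3.03. *Etv1* gave 0.22 ± 0.68 across the sets and 1.19 bridged, and -0.30 after median-ratio scaling. limma called *Sp8*, *Tshz1* and *Pax6* (adjusted p = 0.0133, 0.0393 and 0.0448) and 1.91% of coding genes, and 0 of the 8 in the same 3 settings, with adjusted p of 0.0794 or more. It called 5 with the largest transcript per symbol, adding *Zic1* and *Zic2*, and 6 after median-ratio scaling, adding *Zic4* as well.

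Against DG, 4 of 8 were at least 2 units higher in OB, beside 3.67% of 13382 coding genes (1.46% lower; 2.79% and 1.82% after median-ratio scaling). They were *Sp8* (5.31 ± 0.49), *Zic1* (3.46 ± 0.59), *Tshz1* (3.46 ± 0.55) and *Pax6* (2.31 ± 0.60). *Zic2* gave 1.60 ± 0.52, *Etv1* 1.76 ± 0.68, *Zic4* 1.46 ± 0.30 and *Zic5* 0.26 ± 0.33. The median was 2.04, beside 0.25 over all coding genes. limma called *Sp8* and *Tshz1* (adjusted p = 0.0115 and 0.044), where 2.06% of coding genes were called, and neither in the 3 settings named, where the lowest adjusted p of a factor was 0.073. It called 3 with a pseudocount of 0.1 or the largest transcript, adding *Zic1*, and 5 after median-ratio scaling, adding *Pax6* and *Zic4* to these. The 3 comparisons with OB share its single library, so a factor that is high in that library is high in all of them.

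The SVZ stood above STR for *Sp8*, and less so for *Pax6* and *Tshz1*. *Sp8* was 2.33 ± 0.42 higher, past a size that 1.5% of 13375 coding genes reached (0.15% lower), with 2.23 by SVZ sample 2 alone, which is of the same set as STR. It was 1 of the 6 factors with 1 FPKM in either region. *Pax6* gave 1.60 ± 0.52 (1.34 in the same set) and *Tshz1* 0.96 ± 0.48 (0.84). The *Zic* genes differed from STR by less than their errors, with *Zic1* at -0.29 ± 0.51, *Zic2* at -0.18 ± 0.45, *Zic4* at -0.24 ± 0.26 and *Zic5* at 0.20 ± 0.29, and *Zic4* and *Zic5* were under 1 FPKM in both regions. limma called 0 of the 6 factors and 0 coding genes by Benjamini-Hochberg adjusted p (0.164 for *Sp8*, or 0.0322 with a pseudocount of 0.1 and 0.000161 after median-ratio scaling; 735 coding genes higher and 88 lower at unadjusted p under 0.05).

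Between SVZ and DG, *Sp8* was the factor past the threshold, 2.12 ± 0.42 higher in the SVZ (2.93% of 13603 coding genes higher and 2.15% lower). limma called 0 of 7 factors and 2.63% of coding genes, with an adjusted p of 0.0634 for *Sp8* that ran from 0.000214 after median-ratio scaling to 0.27 with no low filter. *Zic2* had the opposite sign, at -1.51 ± 0.45 (limma adjusted p = 0.17, or 0.021 after median-ratio scaling), and *Pax6* did not differ beyond its error (0.19 ± 0.52, or 0.45 in the set of SVZ sample 1 and DG). Between STR and DG none of the 8 reached 2 units, where 3.55% of 13002 coding genes were lower and 2.48% higher in STR (2.67% and 3.24% after median-ratio scaling) and limma called 0.623%. The lowest values were *Pax6* at -1.41 ± 0.60, or -0.89 bridged within the sets, and *Zic2* at -1.33 ± 0.52, or -1.44 bridged. *Etv1* was 1.54 ± 0.68 higher in STR, or 0.57 bridged.

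Other transcription factors of the interneuron lineage divided between the regions. Of 27, 7 were at least 2 units higher in OB than in SVZ and 1 lower (3.6% and 2.08% of coding genes), with a median of 1.12. *Nr4a2*, an orphan nuclear receptor gene of dopaminergic neurons, had 14.8 FPKM in OB and 0.700 and 0.836 FPKM in the SVZ samples (3.16 ± 0.43). It was not particular to OB, with 10.9 FPKM in DG. *Nr2f2*, the COUP-TFII gene, had 16.9 against 1.27 and 2.40 FPKM (2.69 ± 0.45), and the zinc finger genes *Sall3* and *Sall1* gave 2.29 ± 0.61 and 2.14 ± 0.54. DG had 1.75, 1.55 and 4.95 FPKM of *Nr2f2*, *Sall3* and *Sall1*. The others higher in OB were *Nr2f1*, *Neurod1* and *Emx1*, with 30.6, 4.81 and 5.77 FPKM in OB and 27.2, 32.3 and 24.3 FPKM in DG. *Neurod1* is also a listed dentate granule neuron gene, and *Nr4a2* and *Emx1* are also listed for cortical and hippocampal excitatory neurons. The part of glutamatergic neurons in these differences was not tested. At the other end was *Lhx6*, a gene of cortical and striatal interneurons, with 0.276 FPKM in OB against 8.38 and 5.96 FPKM in SVZ (-2.66 ± 0.47). *Lhx6* had 7.23 FPKM in STR, close to the SVZ (SVZ minus STR -0.03 ± 0.47), and 4.09 FPKM in DG. *Gsx2*, a homeobox gene of progenitors, gave -1.36 ± 0.39, and *Sox11*, of young neurons, -1.29 ± 0.50.

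The *Dlx* homeobox genes, which act throughout the lineage, differed less between SVZ and OB than *Sp8* or *Zic1*, with *Dlx1* at 1.81 ± 0.50, *Dlx2* at 1.44 ± 0.78, *Dlx5* at 1.12 ± 0.51 and *Dlx6* at 0.34 ± 0.48. The difference between these genes and the factors was not tested. Against STR, 14 of 25 lineage factors were at least 2 units higher in OB and 1 lower (6.5% and 2.04% of coding genes), with a median of 2.19 beside 0.53 over all coding genes. In SVZ 5 of 25 were higher than in STR and 0 lower (1.5% and 0.15% of coding genes), with a median of 1.09.

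**Figure D4:**
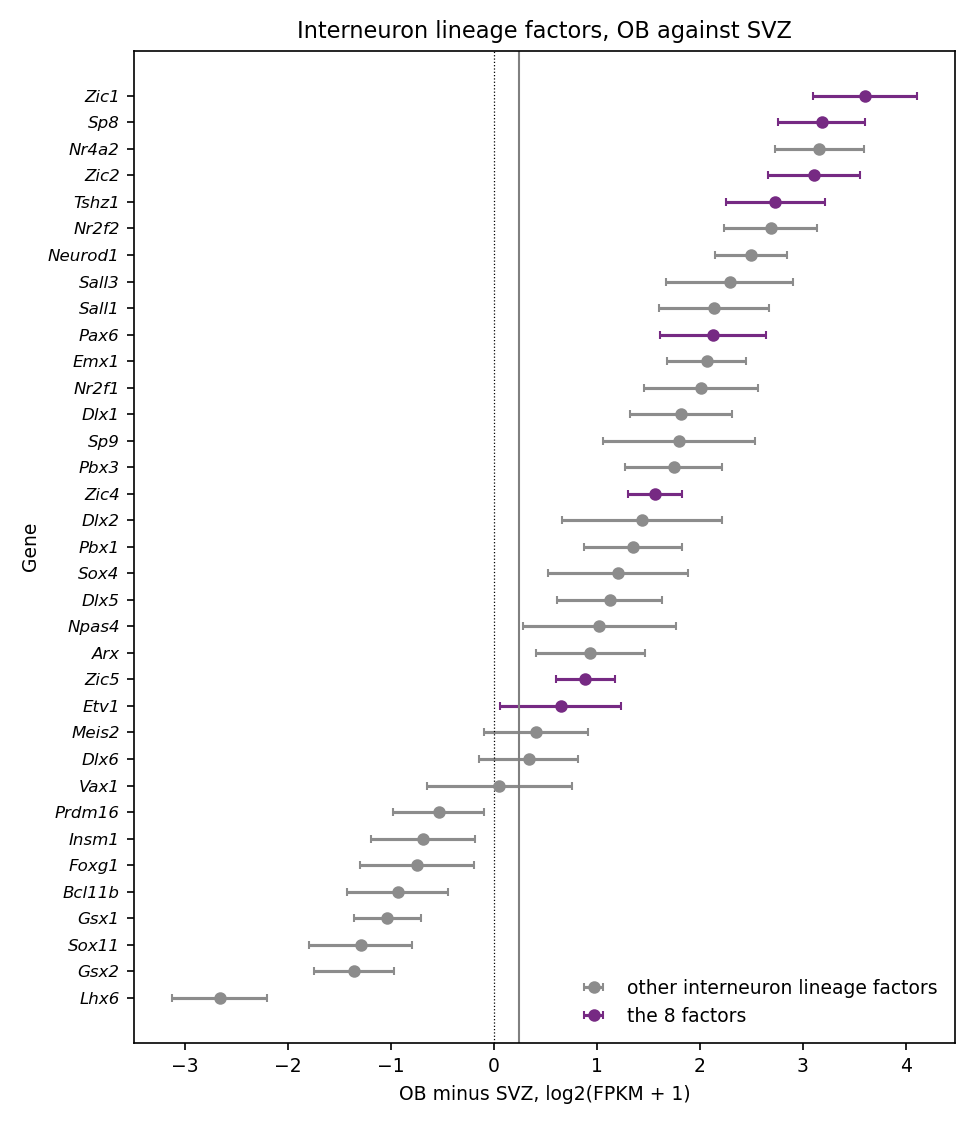
OB minus SVZ differences in log2(FPKM + 1) with limma standard errors for the 8 factors (purple) and 27 other transcription factors of the interneuron lineage (grey), in order of size. The solid line marks the median of all coding genes, 0.24. *Zic1*, *Sp8*, *Zic2* and *Tshz1* sit among the highest, and *Lhx6* and the progenitor gene *Gsx2* lowest.

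Paralogs of the factors were less uniform. *Tshz2* resembled *Tshz1*, at 22.5 FPKM in OB, 2.73 and 2.57 FPKM in the SVZ samples, 1.01 FPKM in DG and 2.77 FPKM in STR (OB minus SVZ 2.69 ± 0.43). *Sp9*, which in mice acts beside *Sp8* and is on the lineage list too, had 79.7 FPKM in OB against 39.5 and 12.3 FPKM in SVZ (1.80 ± 0.74), so the SVZ samples were far apart. *Tshz3*, *Etv4* and *Etv5* gave 1.03 ± 0.35, 1.02 ± 0.44 and -0.09 ± 0.51. In all, 1 of 5 paralogs passed the size threshold upward, as did 3.6% of coding genes, with a median of 1.03.

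Products of bulb interneurons were measured in the same libraries. Of 20, 8 were at least 2 units higher in OB than in SVZ and 3 lower (3.6% and 2.08% of coding genes). Their median was 1.59, beside 0.24 over all coding genes. Calretinin (*Calb2*) reached 656 FPKM in OB against 4.90 and 3.65 FPKM in SVZ (6.97 ± 0.50). Tyrosine hydroxylase (*Th*), the rate-limiting enzyme of dopamine synthesis, reached 200 FPKM against 2.5 and 1.83 FPKM (6.00 ± 0.48), and the neuropeptide gene *Cck* gave 5.19 ± 0.49. *Cck* was not particular to OB, with 309 FPKM there and 348 FPKM in DG. The lower products were *Calb1* (-4.22 ± 0.50), *Sst* (-3.10 ± 0.58) and *Penk* (-2.82 ± 0.69), which had 124, 242 and 1213 FPKM in STR. Against DG, *Calb1* and *Sst* were lower in OB as well (-4.62 ± 0.58 and -2.37 ± 0.67), and *Penk* was higher (4.10 ± 0.80). The cause was not tested. The general GABAergic genes differed less, with *Gad1* at 1.71 ± 0.60, *Slc32a1*, the vesicular GABA transporter, at 0.73 ± 0.60 and *Gad2* at -0.58 ± 0.53.

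Genes of other cell types were measured beside the factors. The counts of them between OB and SVZ stand beside 3.6% of coding genes past 2 units upward and 2.08% downward. Of 12 meningeal fibroblast genes, 11 were highest in OB, and 8 were at least 2 units higher than in SVZ and 0 lower (median 2.42). Their summed level was 2334 FPKM in OB, 166 and 188 in the SVZ samples, 298 in DG and 242 in STR. Without *Ptgds*, the most abundant, it was 156 in OB, 24.5 and 15.4 in the SVZ samples, 33.8 in DG and 16.3 in STR. Single genes did not share 1 order outside OB. DG came second for *Dcn* (4.85 FPKM) and *Slc22a6* (1.25 FPKM), for example, and first for *Lum* (3.41 FPKM). It was the lowest library for *Bmp7* (0.912 FPKM) and *Foxc1* (0.600 FPKM). None of the 12 was listed at 0 in any library. Mitral and tufted cell genes, the bulb's glutamatergic neurons, were at least 2 units higher for 7 of 7 tested. Their summed level was 847 FPKM in OB, 20.8 and 26.5 in the SVZ samples, 803 in DG and 56.7 in STR. Without *Slc17a7*, the most abundant, it was 394 in OB, 18.5 and 20.4 in the SVZ samples, 51.1 in DG and 35.3 in STR. Of the mitral and tufted cell genes *Tbx21* and *Eomes* were listed at 0 in STR and *Lhx5* in SVZ sample 2. Ensheathing glia and olfactory nerve genes were higher for 3 of 7 and summed to 1364 FPKM in OB against 856 and 827 FPKM, and their *S100a5* was listed at 0 outside OB. Stem cell and astrocyte genes were higher for 2 of 10 and lower for 1, summing to 1611 against 950 and 919 FPKM, with none listed at 0. The OB sum included 702 FPKM of *Fabp7*, which had 46.9 and 27.4 FPKM in the SVZ samples. *Slc1a2* went the other way, with 163 FPKM in OB against 346 and 524 FPKM. The part of these cell types in the levels of the factors was not tested.

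Migrating neuroblast genes, by contrast, were past 2 units for 0 of 12 between OB and SVZ, with a median of 0.62 and summed levels of 1998 FPKM in OB, 1009 and 941 in the SVZ samples, 546 in DG and 652 in STR. Doublecortin (*Dcx*), which marks them, had 37.5 FPKM in OB against 16.3 and 18.0 FPKM in SVZ. The opposite order held for *Cd24a* (21.6 against 62.1 and 60.4 FPKM) and *Sox11* (8.26 against 24.1 and 19.5 FPKM). Of the 12, 7 were highest in OB, 2 in SVZ sample 1 and 1 in each other library. The OB sum included 649 FPKM of *Tubb3* and 602 FPKM of the general GABAergic gene *Gad1*. Ependymal genes were lower in OB for 6 of 9 (median -2.20), and oligodendrocyte genes were past 2 units for 0 of 7 (median -1.03).

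The genes whose profiles over the 5 libraries were most like each factor were found among 11411 other coding genes that reached 5 FPKM somewhere (11412 for *Zic4* and *Zic5*), by the distance between mean-centred log2(FPKM + 1) values. For *Sp8* they were *Stoml3*, a stomatin-like membrane protein gene, at a distance of 0.29 log2 units, then *Dlx1* (1.43) and *Cartpt* (1.48), so 1 gene was close and the next ones were not. *Stoml3* had 38.5 FPKM in OB, 4.25 and 2.88 in SVZ and 0.0615 in STR, and DG listed it at 0. For *Pax6* they were *Wnt5a* (0.46), *Tmem200c* (0.63) and *Eya2* (0.69), and for *Tshz1* they were *Cdkn1a* (0.46), *Ush1g* (0.51) and *Smoc1* (0.57).

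For *Zic1* the nearest genes were *Cd74* (0.31), *Hcn4* (0.37) and *Col24a1* (0.37). For *Zic2* they were *Dcn* (0.42), *Aldh1a2* (0.42) and *Slc22a6* (0.43), of which *Dcn* and *Slc22a6* are on the meningeal list. *Zic4* and *Zic5*, whose profiles are flattened by their low levels on this scale, were nearest to *Colec12* (0.16) and *Lancl2* (0.10), and *Etv1* to *Ppp1cc* (0.42). Among the 8 themselves, *Zic4* and *Zic5* (0.93), *Pax6* and *Tshz1* (1.00) and *Tshz1* and *Zic1* (1.14) were the closest, and *Sp8* and *Zic5* (4.0) the farthest apart. With 5 libraries of which OB is 1, these distances rank descriptions and carry no test.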

How the data were processed

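RNA-seq libraries of SVZ (2 biological replicates), OB, DG and STR (1 each) were grouped by their titles. Per the submitters' processing notes, the tools included CASAVA, TopHat 1.2.0 and Cufflinks 1.0.0 and the build was mm9; the notes give no role or order. The deposited table holds FPKM per transcript as the authors computed it, with each transcript's length as another deposited column; exon numbers of the catalogue lncRNAs come from the authors' second deposited file. Whether the libraries kept strand was not stated in the labels, so antisense partners may share reads. Low values were not whole multiples of a step: at most 28.5% lay within 0.1 of one, so no counts were recovered.

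FPKM was summed per symbol over coding (NM) transcripts. limma 3.58.1 in R 4.3.3 (trended empirical Bayes) was fitted on log2(FPKM + 1) to all 5 libraries in 4 groups, over the 14024 coding genes that reached 1 FPKM anywhere, and p-values were adjusted by Benjamini-Hochberg over those that did so in the regions compared. The script was tested on simulated data. Starts of deposited loci are printed counting from 1. Strands came from GENCODE M21 and promoter sequences from RefSeq (GRCm38.p6). The promoter sequences used covered 6 of the 8 genes, without *Zic2* and *Tshz1*. No coordinate was moved between builds.

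All 8 factors are named, with the 3 genes per lineage, paralog and product list that differ most between OB and SVZ and all paralogs listed; further list genes are examples chosen after their values were seen. The members, lists and tests were chosen with earlier results of these data known, and 2 genes of these lists are not reported here. Alternatives were another pseudocount (0.1), no low filter, the largest transcript per symbol, median-ratio scaling, differences within library sets, each SVZ sample left out, limma without the trend and, chosen after seeing the data, noncoding genes and lncRNA loci in the fit, and the untrended fit for single factors.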

Additional observations from a re-analysis of the deposited data

How the results depend on the processing

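The counts of factors past 2 log2 units stayed within 1.5 times of the reported ones in each alternative run, except SVZ minus STR with a pseudocount of 0.1 (2 factors in place of 1). Of the 48 differences of single factors, 5 turned in sign in some alternative, and limma called none of the 5. Of these, 2 turned after median-ratio scaling, *Etv1* OB minus STR (-0.30 in place of 0.22) and *Tshz1* STR minus DG (0.028 in place of -0.23). The other 3 turned with 1 SVZ sample left out: *Etv1* SVZ minus STR (0.05 without sample 1, in place of -0.43), *Pax6* SVZ minus DG (-0.07 without sample 1, in place of 0.19) and *Zic1* SVZ minus DG (0.08 without sample 2, in place of -0.14). The cause was not tested.

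The SVZ pair gives 1 residual degree of freedom, and the rest of the precision comes from the genes in the fit. Those genes added 5.03 prior degrees of freedom as reported and 37.4 after median-ratio scaling. The number of coding genes called by limma therefore depended on the setting. In OB minus SVZ it was 629 as reported, 1865 with median-ratio scaling, 51 without the trend, and 0 with no low filter or with noncoding genes and lncRNA loci in the fit. In OB minus STR it was 255, and 1723, 0, 0 and 0 in the same order, with 450 for the largest transcript per symbol. In OB minus DG it was 276, and 1158, 0, 0 and 0, with 429 for the largest transcript. In SVZ minus DG it was 358, and 1794, 40, 0 and 0, with 546 for the largest transcript and 764 with a pseudocount of 0.1. In STR minus DG it was 81, and 1381, 0, 0 and 0, with 197 for the largest transcript and 243 with a pseudocount of 0.1. In SVZ minus STR it was 0, and 529 with median-ratio scaling and 133 with a pseudocount of 0.1. At unadjusted p under 0.05 the reported limma fit had 1397 coding genes higher and 829 lower (OB minus SVZ), 1908 and 449 (OB minus STR), 1271 and 469 (OB minus DG), 1240 and 799 (SVZ minus DG), 649 and 973 (STR minus DG). After median-ratio scaling, 2.5% of coding genes were past 2 units upward and 2.53% downward in OB minus SVZ (3.6% and 2.08% as deposited), and 3.49% and 3.28% in OB minus STR (6.5% and 2.04%).

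No paired analysis was possible because only the SVZ has replicates. Leaving out an SVZ sample leaves no residual degree of freedom, so those results are values with no test; the depth of all libraries is unknown, and levels under 1 FPKM (*Zic4*, *Zic5* and the lncRNAs in most libraries) are the least certain.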
